A study of Mus musculus with 6 samples.

Results

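Blood vessels of the hippocampus were examined through 45 genes that mark their cells, taken as a list of gene names. The list was chosen with earlier results of these data known, so its counts only describe it. The list held 29 endothelial, 11 mural and 5 fibroblast genes. Of these, 44 were measured among the 22180 genes with a probe set named for that gene alone, and Ly6a was not analysed here. Where a gene had several such probe sets, the one with the highest mean over all arrays was used. The tissue was the hippocampus of males, C57BL/6J by background, taken at postnatal day 56. There were 3 samples labelled Trpc4 wild type and 3 labelled Trpc4 knock out, with 1 Affymetrix expression array each and no treatment beyond genotype given. The labels say neither which part of Trpc4 was removed nor in which cells. They number the replicates without stating that each is a separate animal, so the p-values reflect how far these particular samples scatter, part of which may be technical.

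Brain capillaries are lined by endothelial cells whose tight junctions, transporters and export pumps form the blood-brain barrier. Pericytes and smooth muscle cells, together called mural cells, wrap the endothelial tube, and fibroblasts lie around larger vessels and in the meninges. VEGF and angiopoietin receptors maintain the endothelium, PDGF from endothelial cells recruits pericytes, and Wnt signals from brain cells keep the barrier genes active. TRPC4, a receptor-operated cation channel, is known from neurons and also from endothelial cells of blood vessels. All signals are log2 values made by RMA, and all differences are knockout minus wild type on that scale. Hippocampal tissue is a mixture, and fewer cells of a type cannot be told apart from less RNA per cell.

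The array medians lay between 4.73 and 4.75, and Pearson's r over all probe sets was 0.985 to 0.988 between any 2 arrays, with probe sets not being independent replicates. The Trpc4 signal was 8.06, 8.23 and 8.06 in wild-type replicates 1 to 3 and 7.39, 7.55 and 7.31 in knockout replicates 1 to 3. The groups did not overlap, and knockout minus wild type was -0.70 (standard error 0.09). Its adjusted p over all genes was 0.738 (limma with Benjamini-Hochberg adjustment), and an exact permutation test, two-sided, gave 0.1, its lowest possible value with 3 samples a group. The probe set still gave 61.5% of the wild-type signal in knockout, and whether its probes lie inside the deleted part is not given in the sources used here.

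In wild-type hippocampus most of the list was brighter than the median probe set, at 4.72. This held for 39 of the 44 genes on the mean over all arrays, beside 12978 of the 22180 genes tested. The exceptions were Ly6c1, Sox18, Higd1b, Tagln and Lum. Signals of different probe sets depend on their probes and do not rank genes by transcript number. The wild-type means of the 28 endothelial genes ran from 3.25 to 8.51 with a median of 6.09. Those of the 11 mural genes ran from 4.39 to 8.73 (median 5.68), and those of the 5 fibroblast genes from 3.73 to 7.93 (median 5.66). Defining genes of the endothelial and mural classes gave signal above that median, among them the claudin of brain endothelium Cldn5 (5.67 ± 0.28, SD, n = 3), the adhesion molecules Pecam1 (6.08 ± 0.06) and Cdh5 (6.57 ± 0.18), the pericyte receptor Pdgfrb (6.94 ± 0.05) and the smooth muscle myosin Myh11 (5.68 ± 0.13). Ly6c1, a surface antigen of brain capillaries with close relatives in the Ly6 family, had a dim probe set at 3.25 ± 0.61.

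No member passed the adjusted threshold in knockout hippocampus, while the signs of the differences leaned to lower values in the endothelial class. Of the 44 genes, 31 were lower and 13 higher in knockout, with a median difference of -0.060, against 45.1% lower and a median of 0.013 over all genes. The endothelial genes were lower for 22 of 28 (median -0.089), the mural genes for 6 of 11 (median -0.001) and the fibroblast genes for 3 of 5 (median -0.015). The lowest adjusted p of a member was 0.849 (limma), and 0 members passed 0.05, as did 0.0% of all genes. At an unadjusted p under 0.05 there were 3 members, the export pump gene Abcb1a, the potassium channel gene Kcnj8 and the actin gene Acta2. At that limit stood 5.75% of all genes, 2.59% lower and 3.16% higher. All 3 members were lower and all had signals above the median, where 2.09% of genes that bright were lower at that limit. Without wild-type replicate 3 the count was 0, and without wild-type replicate 2 it was 1, another member, Dcn.

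Groups that did not overlap were found for 6 members. Abcb1a, Slco1c1, Emcn, Kcnj8 and Acta2 had every knockout value under every wild-type value, and Sox18 lay higher in all 3. Over all genes, 4.45% lay lower and 6.41% higher without overlap. The gaps between the groups were small, from 0.007 for Kcnj8 to 0.087 for Abcb1a. Leaving out 1 sample leaves fewer values that could overlap. The 5 lower genes became 8 without knockout replicate 1, 8 without knockout replicate 2, 12 without knockout replicate 3 and 11 without wild-type replicate 2. The 1 higher gene became 3 without knockout replicate 2, and 2 without knockout replicate 3, wild-type replicate 2 or wild-type replicate 3. The shares over all genes above belong to 3 against 3 samples. Those for the smaller groups are not given here, so these rises cannot be set against them.

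The intervals, not adjusted for the number of genes, show which sizes of change were compatible with the values of each gene. They do not give the size of change that the adjusted threshold could miss. Of the 44 members, 41 had a 95% interval that included 0. The interval lay within -0.5 to 0.5 for 37 members and within -1 to 1, a doubling or its inverse of signal, for all 44. The narrowest was that of the glucose transporter gene Slc2a1, from -0.23 to 0.11, or 85.5% to 108.0% of the wild-type signal. The widest was that of Ly6c1, from -0.89 to 0.72.

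**Figure D1:**
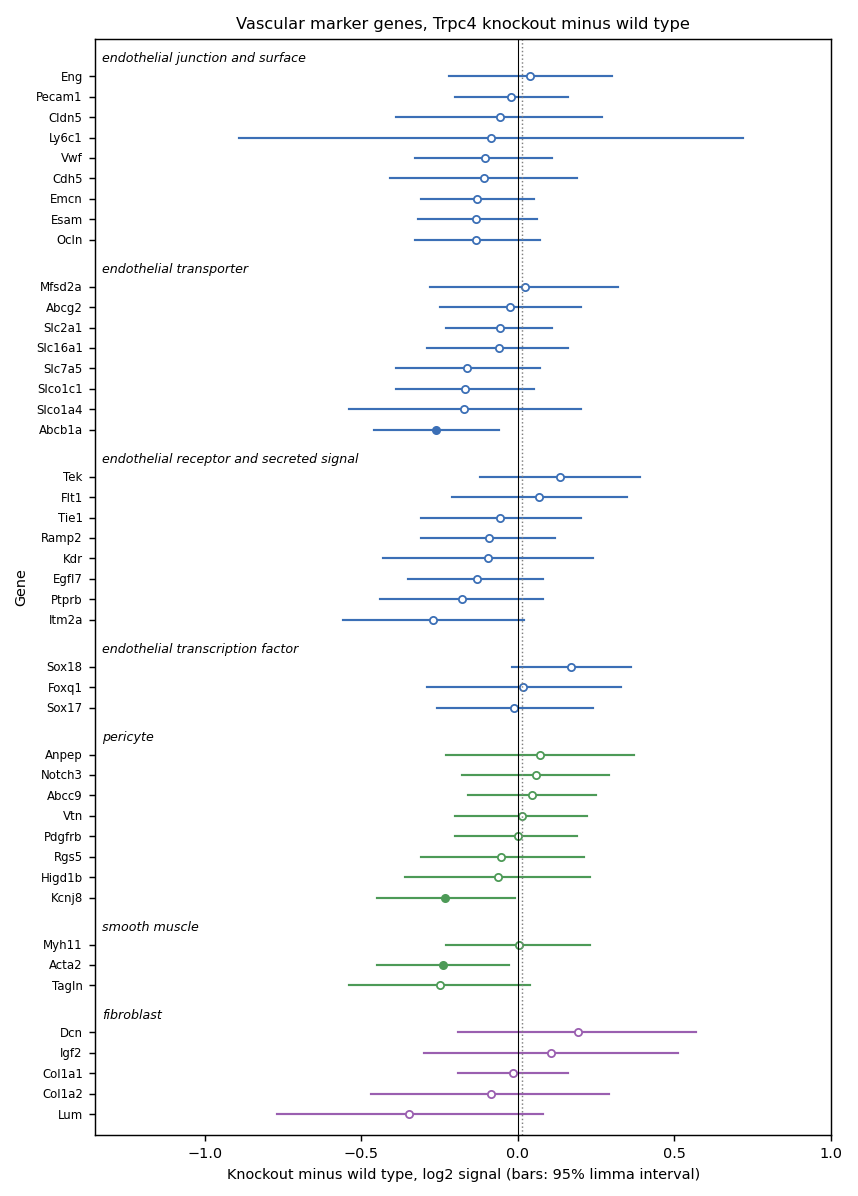
Difference between knockout and wild type for the 44 measured members, by class (blue endothelial, green mural, purple fibroblast), on the log2 scale with 95% limma intervals. Filled points mark Abcb1a, Kcnj8 and Acta2, whose unadjusted p was under 0.05, and the dotted line marks the median of all genes at 0.013.

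Transporters and pumps of the barrier were the endothelial group with the lowest median, at -0.112, and 7 of 8 were lower in knockout. Abcb1a encodes P-glycoprotein, the pump that returns many drugs from endothelium to blood. Its signal was 6.75, 6.94 and 6.98 in wild-type replicates 1 to 3 and 6.64, 6.67 and 6.57 in knockout replicates 1 to 3. Every knockout value was below every wild-type value. The difference was -0.26 (standard error 0.09, 95% interval -0.46 to -0.06, unadjusted limma p 0.0172, adjusted p 0.849). That is 83.3% of the wild-type signal (72.5% to 95.8%). The difference ranged from -0.33 to -0.22 when samples were left out one at a time. Its tandem relative Abcb1b, outside the list, had 5.01 in wild type and 4.81 in knockout, and the coding sequences of the pair are similar enough that shared hybridisation was not tested here.

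The window before the RefSeq start of Abcb1a is shown because this gene had the lowest p of the list, with capitals marking the letters TCAAAG on either strand, the core of the motif that Wnt effectors of the LEF/TCF family recognise. The sequence is from RefSeq, build GRCm38.p6, chr5:8566841-8567090, plus strand.
Abcb1a: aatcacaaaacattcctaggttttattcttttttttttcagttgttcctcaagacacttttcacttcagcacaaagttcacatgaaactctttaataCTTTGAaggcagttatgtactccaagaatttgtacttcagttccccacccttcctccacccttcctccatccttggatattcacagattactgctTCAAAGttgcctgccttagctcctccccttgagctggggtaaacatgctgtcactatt
The letters stand from 153 to 148 and from 58 to 53 bases before the start. They occurred in 13.8% of the 32851 windows of 250 bases that RefSeq gave, and of the 36 member windows 5 did, those of Abcb1a, Egfl7, Igf2, Mfsd2a and Rgs5. A match of letters is a description of the sequence and not a binding site.

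Slco1c1, which carries thyroid hormone and is also known from choroid plexus and astrocytes, had signals of 8.22, 8.29 and 8.25 in wild type and 8.14, 7.91 and 8.20 in knockout. The groups did not overlap, although knockout replicate 3 came within 0.012 of the lowest wild-type value. The difference was -0.17 with an interval of -0.39 to 0.05 (adjusted limma p 0.878). The related organic anion transporter gene Slco1a4 differed by the same -0.17 with a wider interval, -0.54 to 0.20. Slco1c1 was -0.08 without knockout replicate 2, and Slco1a4 was -0.04 without knockout replicate 1 and -0.31 without knockout replicate 3. Slc7a5, the large neutral amino acid transporter, had 8.0, 8.12 and 8.17 in wild type and 8.04, 8.0 and 7.76 in knockout, a difference of -0.16 (interval -0.39 to 0.07).

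The transporter genes with the brightest probe sets of the endothelial class showed overlapping groups, apart from Slco1c1. Slc2a1, the glucose transporter of the barrier, had 8.48, 8.58 and 8.47 in wild type and 8.49, 8.42 and 8.45 in knockout. The monocarboxylate transporter gene Slc16a1 had 8.0, 8.11 and 8.13 in wild type and 8.0, 7.88 and 8.18 in knockout. The differences were -0.06 for each, with intervals of -0.23 to 0.11 and -0.29 to 0.16. The pump gene Abcg2 differed by -0.02 (interval -0.25 to 0.20). Mfsd2a, which carries lipids and restrains vesicle traffic across the barrier, differed by 0.02 (interval -0.28 to 0.32) and was the only transporter on the list with a positive difference.

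Junction and surface genes were lower for 8 of 9, with a median of -0.106, and none reached an unadjusted p of 0.05. Emcn, a sialomucin of capillary and venous endothelium, had 5.33, 5.31 and 5.37 in wild type and 5.24, 5.10 and 5.27 in knockout. The groups did not overlap, and the difference was -0.13 (interval -0.31 to 0.05, adjusted limma p 0.883). The tight junction gene Ocln and the junctional adhesion gene Esam each differed by -0.13, with intervals of -0.33 to 0.07 and -0.32 to 0.06. Cdh5, the cadherin of endothelial junctions, differed by -0.11 (interval -0.41 to 0.19). So did Vwf, the clotting factor carrier of endothelium (interval -0.33 to 0.11). Pecam1 differed by -0.02 (interval -0.20 to 0.16). Eng, a TGF-beta coreceptor, was the single gene of this group with a positive difference, 0.04 (interval -0.22 to 0.30).

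Cldn5 showed how far 1 sample could carry a member. It had 6.00 in wild-type replicate 1 against 5.53 and 5.49 in wild-type replicates 2 and 3, and 5.51, 5.71 and 5.63 in knockout. The difference of -0.06 became 0.11 without wild-type replicate 1, and that sample held the highest value for 4 of the 9 junction and surface genes. Ly6c1 ran from 2.58 to 3.78 in wild type and from 2.66 to 3.72 in knockout, so that its difference of -0.09 had the widest interval of the list.

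Among receptors and secreted signals, 6 of 8 were lower, with a median of -0.094. Itm2a, a membrane protein enriched in brain endothelium, had 7.66, 7.56 and 7.77 in wild type and 7.24, 7.28 and 7.65 in knockout. Knockout replicates 1 and 2 lay below all wild-type values and replicate 3 among them. The difference was -0.27 (interval -0.56 to 0.02, adjusted limma p 0.857), the lowest of the endothelial class, and it became -0.40 without knockout replicate 3. The angiopoietin receptor gene Tek differed by 0.13 (interval -0.12 to 0.39), and its phosphatase partner Ptprb, which restrains that receptor, by -0.18 (interval -0.44 to 0.08). The related receptor gene Tie1 differed by -0.06. The VEGF receptor genes Flt1 and Kdr differed by 0.07 and -0.10, each with an interval across 0. Kdr was spread in knockout, at 5.41, 5.61 and 5.99, against 5.72, 5.84 and 5.74 in wild type. Ramp2, the partner of the adrenomedullin receptor, differed by -0.09, and the secreted factor gene Egfl7 by -0.13.

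Of the 3 endothelial transcription factor genes, 1 was lower in knockout. Sox18, which acts in vascular development, had 4.63, 4.64 and 4.60 in wild type and 4.67, 4.82 and 4.89 in knockout. All 3 knockout values were higher, with a gap of 0.030 between the groups, and the difference was 0.17 (interval -0.02 to 0.36, adjusted limma p 0.859). Its probe set is one of the 5 dim ones named above. Its relative Sox17 differed by -0.01 (interval -0.26 to 0.24), and the forkhead gene Foxq1, which is enriched in brain endothelium, by 0.02 (interval -0.29 to 0.33).

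**Figure D2:**
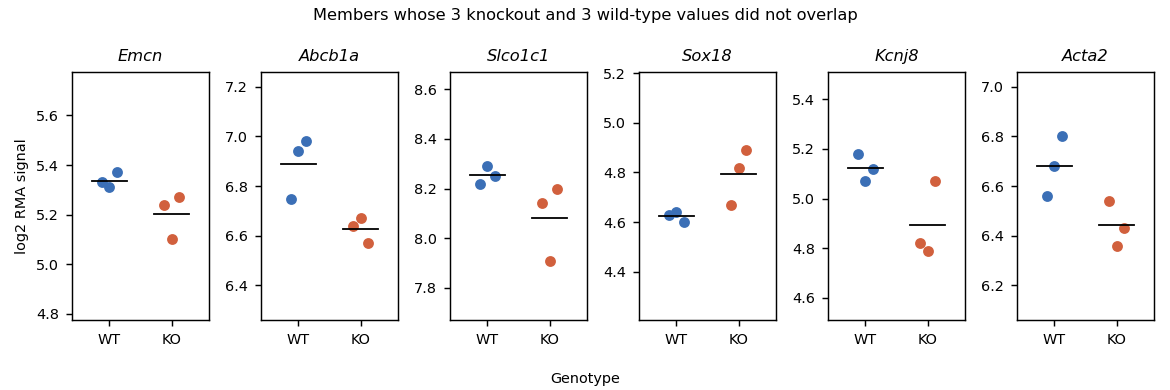
Log2 RMA signal in each of the 3 wild-type (WT) and 3 knockout (KO) samples for the 6 members whose groups did not overlap, with a black line at each group mean; each panel spans 1 log2 unit. The knockout points lie below the wild-type points for Emcn, Abcb1a, Slco1c1 and Acta2 and above them for Sox18. For Kcnj8 the gap was 0.007 before rounding, and wild-type replicate 2 and knockout replicate 3 are both drawn at 5.07.

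Pericyte genes were split evenly, 4 lower and 4 higher, with a median of 0.006. Kcnj8, the pore subunit of the vascular ATP-sensitive potassium channel, had 5.18, 5.07 and 5.12 in wild type and 4.82, 4.79 and 5.07 in knockout. Knockout replicates 1 and 2 were well below the wild-type values, and replicate 3 touched them to within 0.007. The difference was -0.23 (standard error 0.09, interval -0.45 to -0.01, unadjusted limma p 0.0410, adjusted p 0.853), or 85.1% of the wild-type signal. Abcc9, the regulatory subunit of the same channel, had 5.94, 5.96 and 6.02 in wild type and 6.15, 5.88 and 6.02 in knockout, a difference of 0.05 (interval -0.16 to 0.25). The genes of these subunits lie side by side on chromosome 6 in the reference table, and the difference between their changes was not tested. The brightest pericyte genes were Rgs5, a regulator of G proteins, and Vtn, vitronectin. Rgs5 had 8.67, 8.74 and 8.78 in wild type and 8.76, 8.44 and 8.83 in knockout, a difference of -0.05 (interval -0.31 to 0.21). Vtn had 7.82, 7.72 and 7.76 in wild type and 7.77, 7.65 and 7.91 in knockout, a difference of 0.01 (interval -0.20 to 0.22). Knockout replicate 2 was the lowest of all 6 samples for both. Pdgfrb, the receptor that draws pericytes to vessels, differed by -0.0012 (interval -0.20 to 0.19). Notch3, the receptor of mural cells mutated in a hereditary small vessel disease, differed by 0.06 (interval -0.18 to 0.29). The aminopeptidase gene Anpep differed by 0.07, and the dim gene Higd1b by -0.06.

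The window before the start of Kcnj8 is given for comparison with those of Abcb1a and Acta2, and it held no match to any motif searched, so nothing is in capitals. It is chr6:142571615-142571864 of GRCm38.p6, minus strand, from RefSeq.
Kcnj8: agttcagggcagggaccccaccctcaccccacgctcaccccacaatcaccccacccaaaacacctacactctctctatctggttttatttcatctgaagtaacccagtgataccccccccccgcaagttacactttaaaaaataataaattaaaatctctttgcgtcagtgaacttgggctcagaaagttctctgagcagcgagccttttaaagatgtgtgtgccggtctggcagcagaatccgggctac

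The 3 smooth muscle genes encode contractile proteins, and their differences were unequal. Acta2, smooth muscle alpha-actin, had 6.56, 6.68 and 6.80 in wild type and 6.54, 6.36 and 6.43 in knockout. The groups did not overlap, with a gap of 0.024 between wild-type replicate 1 and knockout replicate 1. The difference was -0.24 (standard error 0.09, interval -0.45 to -0.03, unadjusted limma p 0.0324, adjusted p 0.853), or 84.7% of the wild-type signal, and lay between -0.30 and -0.18 without single samples. Tagln, the actin-binding protein transgelin, had 4.38, 4.54 and 4.26 in wild type and 4.04, 4.38 and 4.01 in knockout. Its difference was -0.25 (interval -0.54 to 0.04), on a probe set dimmer than the median of all. Myh11 had 5.74, 5.54 and 5.77 in wild type and 5.64, 5.61 and 5.82 in knockout, a difference of 0.0028 (interval -0.23 to 0.23) that turned to -0.0020 with median centring and -0.0079 with quantile normalization.

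Smooth muscle promoters are known for CArG boxes, at which serum response factor and its partner myocardin act. A CArG box has an A/T core of 6 bases between a pair of Cs and a pair of Gs. The Acta2 window is shown for this feature, with capitals marking boxes in which 1 base of the core is C or G (chr19:34255374-34255623 of GRCm38.p6, minus strand, from RefSeq).
Acta2: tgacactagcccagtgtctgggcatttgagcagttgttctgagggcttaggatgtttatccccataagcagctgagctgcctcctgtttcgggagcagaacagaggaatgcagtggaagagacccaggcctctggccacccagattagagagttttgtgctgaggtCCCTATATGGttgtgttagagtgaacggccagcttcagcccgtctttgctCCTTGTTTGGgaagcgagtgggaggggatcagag
These boxes lie 84 to 75 and 34 to 25 bases before the RefSeq start, and both strands were searched. A box with 1 such substitution was present in 7.24% of all windows and in 8 of the 36 member windows. A full match was present in 1.47% of all windows and in 1 member window, that of Igf2. The 36 windows belong to the 27 members with an entry in the table, and the members without one include Tagln and Myh11. The other letters searched were TATAAA (12.4% of all windows, 3 member windows), GGGCGG (32.7%, 17 member windows) and CCGGAA (12%, 2 member windows), on both strands. Members were not chosen for their promoters, and no test was made.

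Fibroblast genes showed no common direction. Dcn, the collagen-binding proteoglycan decorin, had 7.84, 8.25 and 7.69 in wild type and 7.88, 8.28 and 8.19 in knockout. Its difference was 0.19 (interval -0.19 to 0.57), and wild-type replicate 2 lay as high as the knockout samples. It ran from 0.07 without wild-type replicate 3 to 0.35 without wild-type replicate 2. Lum, the related proteoglycan lumican, had 3.51, 3.79 and 3.90 in wild type and 3.68, 3.0 and 3.47 in knockout. Its probe set was dim, and the difference of -0.35 (interval -0.77 to 0.08) was the lowest of the whole list. It was -0.16 without knockout replicate 2, when Tagln at -0.37 was lower, and -0.50 without knockout replicate 1. Dcn and Lum are neighbours on chromosome 10 in the reference table. Igf2, the growth factor of meninges and choroid plexus stroma, had 6.25, 6.30 and 6.56 in wild type and 6.29, 6.26 and 6.88 in knockout, a difference of 0.10 (interval -0.30 to 0.51). The collagen I chain genes Col1a1 and Col1a2 differed by -0.02 (interval -0.19 to 0.16) and -0.09 (interval -0.47 to 0.29). A dimmer probe set of Col1a2 gave 0.23, the opposite sign. Without knockout replicate 2, 1 of the 5 genes was lower in place of 3.

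The score of a sample was the mean, over the genes of a class, of the sample's deviation from each gene's mean over the 6 arrays. The endothelial score was 0.070, -0.040 and 0.082 in wild-type replicates 1 to 3 and -0.065, -0.052 and 0.006 in knockout replicates 1 to 3. Wild-type replicate 2 lay with the knockout samples, so the groups overlapped. The mural score was 0.045, -0.007 and 0.050 in wild type and -0.013, -0.083 and 0.007 in knockout, and the groups overlapped. The fibroblast score was -0.101, 0.098 and 0.050 in wild type and -0.021, -0.176 and 0.151 in knockout, with the highest and the lowest sample both in knockout. Within the endothelial class the transporter score alone did not overlap, at -0.003, 0.069 and 0.10 in wild type and -0.057, -0.084 and -0.025 in knockout. With the median of deviations in place of the mean, the transporter groups overlapped, with wild-type replicate 1 at -0.005 below knockout replicate 3 at 0.001. The smooth muscle score, over 3 genes, was 0.055, 0.083 and 0.105 in wild type and -0.10, -0.057 and -0.086 in knockout, and did not overlap by mean or by median. The scores are descriptions of the list and carry no p-value.

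Knockout replicate 2 held the lowest value of the 6 samples for 17 of the 44 members (38.6%), where it was the lowest for 15.1% of all genes. Wild-type replicate 1 was the lowest for 1 member, Igf2, against 17.9% of all genes. The highest value came from knockout replicate 3 for 12 members and from wild-type replicate 1 for 11. The median difference of the 44 members was -0.039 without knockout replicate 2. That of the 28 endothelial genes was -0.057 without knockout replicate 1, -0.058 without wild-type replicate 1 and -0.125 without wild-type replicate 2, when 25 of 28 were lower. The mural and fibroblast medians lay on both sides of 0 as samples were left out. The mural median was 0.043, 0.027 and 0.001 without knockout replicate 2, wild-type replicate 1 and wild-type replicate 3, and -0.062, -0.047 and -0.027 without knockout replicate 3, wild-type replicate 2 and knockout replicate 1. The fibroblast median was 0.072 without knockout replicate 2, 0.022 without wild-type replicate 1, and between -0.098 and -0.026 without each of the others.

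**Figure D3:**
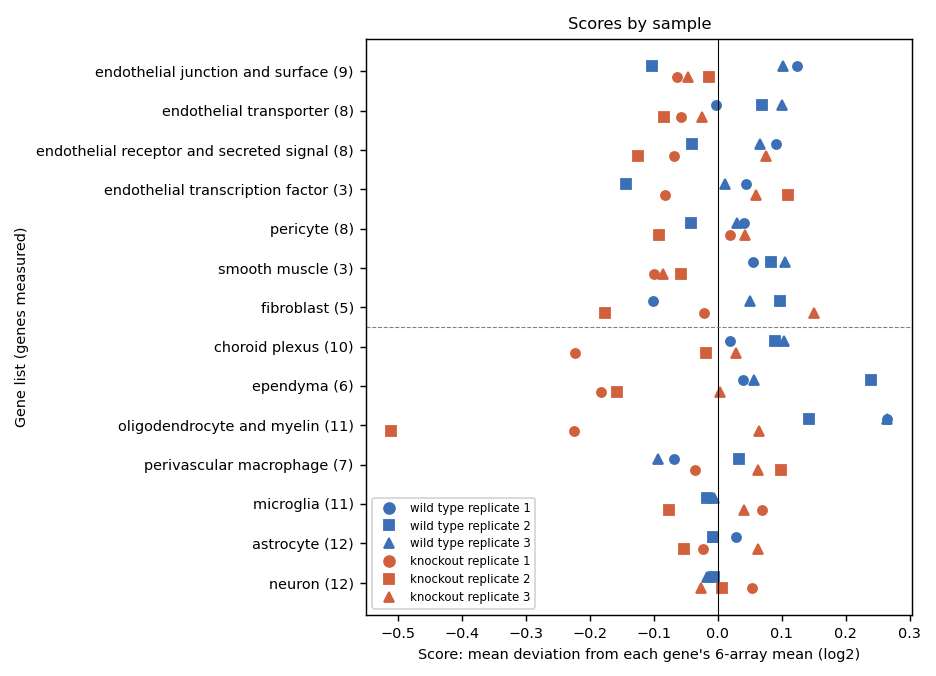
Score of each sample, as the mean log2 deviation from each gene's mean over the 6 arrays, for the classes of the list (above the dashed line) and for markers of other cells (below it); colours give the genotype and shapes the replicate. The transporter, smooth muscle, ependyma and myelin scores separate the genotypes (the transporter score not with the median of deviations), and knockout replicate 2 has the lowest myelin score at -0.510.

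Other genes of the same vessels and pathways leaned lower in some lists and higher in others. Among 160 measured genes of 9 further lists, 72 were lower and 88 higher (45.1% of all genes were lower), with a median of 0.010. Single lists ran from 25.0% to 72.7% lower. None passed the adjusted threshold (lowest adjusted limma p 0.849), and 2 were lower and 4 higher at an unadjusted p under 0.05, beside 2.59% and 3.16% of all genes. Without overlap, 11 lay lower and 9 higher, beside 4.45% and 6.41% of all genes. Of 33 other endothelial genes, 14 were lower (median 0.021), beside 22 of 28 on the marker list. The difference between the lists was not tested. Limiting both to signals above the median of all probe sets gave 10 of 22 and 21 of 26 lower, where 43.3% of all genes that bright were lower. The stem cell antigen Cd34, also carried by endothelium, differed by -0.22, lower in all 3 knockout samples. The forkhead gene Foxc1 differed by 0.29 with overlap. Sox7, the third member of the Sox17 and Sox18 family, differed by 0.34 on a dim probe set, without overlap.

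Barrier and signalling lists were counted in the same way. Of 11 other tight and adherens junction genes, 8 were lower (median -0.077). Ctnna1, alpha-catenin, differed by -0.19 and Jam2 by -0.15, both lower in all 3 knockout samples. Lsr, a protein of tricellular junctions, differed by 0.23, higher in all 3 knockout samples. Of 18 other barrier transporters and receptors, 8 were lower (median 0.018), with Abcb1b at -0.20, the taurine transporter gene Slc6a6 at -0.15, and the metal ion transporter gene Slc39a8 at 0.14, the only gene of the list without overlap, higher in all 3 knockout samples. Of 14 genes of Wnt and Norrin signalling, 6 were lower (median 0.012, mean -0.002). In that list the Norrin receptor gene Fzd4 differed by -0.27 and the ligand gene Wnt7a by -0.19, both lower in all 3 knockout samples, while the Wnt target gene Apcdd1 differed by 0.14. Of 14 basement membrane genes, 8 were lower (median -0.002), with perlecan, Hspg2, at -0.10, lower in all 3 knockout samples. The collagen IV gene Col4a1 differed by 0.10 with overlap.

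Ligand genes and the remaining lists follow. Of 11 VEGF and angiopoietin ligands and coreceptors, 4 were lower (median 0.004). Angpt1, the ligand of the Tek receptor, differed by 0.26, with knockout replicates 1 and 2 and wild-type replicate 2 all at 4.84. The placental growth factor gene Pgf differed by 0.36 on a dim probe set, higher in all 3 knockout samples. Vegfc differed by -0.20. Of 18 genes of PDGF, Notch and TGF-beta signalling to mural cells, 7 were lower (median 0.037, mean -0.013), with Pdgfb at 0.16, Jag2 at 0.15 and Dll4 at -0.41 on a dim probe set. Of 21 other mural cell genes, 12 were lower (median -0.064). The pericyte gene Atp13a5 differed by -0.27, lower in all 3 knockout samples. Mylk, the myosin light chain kinase gene, differed by -0.24 on a dim probe set with overlap. The G protein regulator gene Rgs4 differed by 0.16, higher in all 3 knockout samples. Its wild-type signal was 8.38, beside a list median of 4.96, and which cells gave that signal was not tested. Of 20 other fibroblast and meningeal genes, 5 were lower (median 0.042). Fbln1 differed by 0.14, higher in all 3 knockout samples, while Islr at 0.23 and the collagen gene Col5a1 at -0.15 had overlapping groups.

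**Figure D4:**
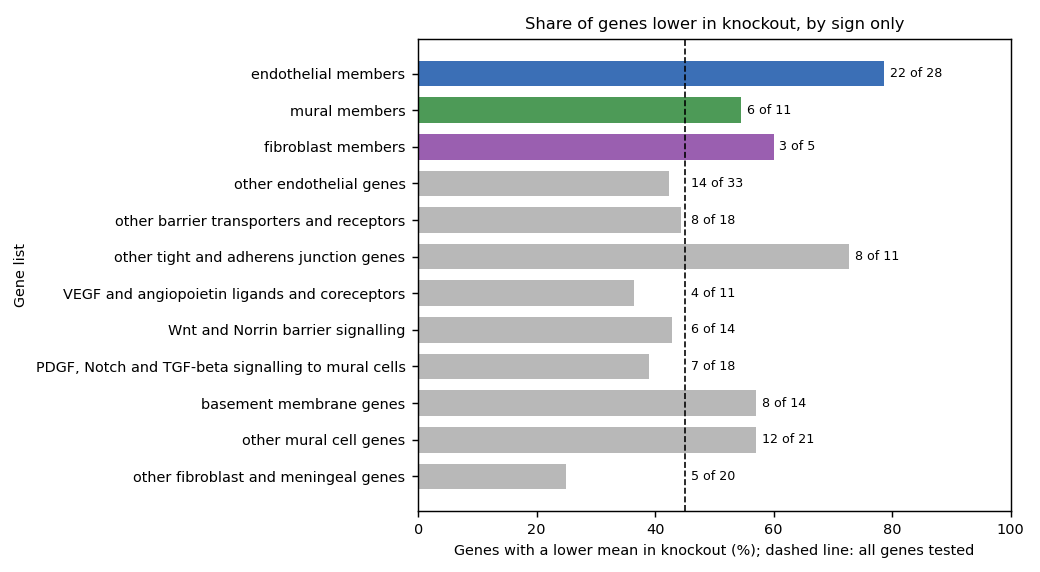
Share of genes with a lower mean in knockout, by sign only, for the classes of the marker list (coloured) and for the further lists (grey), with counts beside the bars and all genes (45.1%) as a dashed line. The endothelial members stand at 22 of 28 and the other endothelial genes at 14 of 33.

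Markers of other cells in the tissue are given beside these values. All 11 oligodendrocyte and myelin genes were lower in knockout (median -0.443). Each had an unadjusted limma p under 0.05, as did 2.59% of all genes in that direction, and none passed after adjustment. The groups did not overlap for 10 of the 11, beside 4.45% of all genes lower without overlap. The score of these genes was 0.265, 0.142 and 0.264 in wild type and -0.225, -0.510 and 0.064 in knockout. Knockout replicate 2 was the lowest sample of this score and of the mural and fibroblast scores. The endothelial score was lowest in knockout replicate 1, at -0.065, with knockout replicate 2 at -0.052. Choroid plexus markers were lower for 9 of 10 (median -0.128), with scores of 0.020, 0.090 and 0.103 in wild type and -0.223, -0.019 and 0.029 in knockout. Their leading gene Ttr, transthyretin, differed by -0.43. Ependyma markers were lower for 6 of 6 (median -0.151), with scores from 0.040 to 0.240 in wild type and from -0.183 to 0.004 in knockout. Perivascular macrophage markers were lower for 2 of 7 (median 0.143), but only 1 of the 7 was brighter than the median probe set. Of the choroid plexus markers 4 of 10 were that bright, and of the ependyma markers 2 of 6. The macrophage scores overlapped, at -0.069, 0.034 and -0.093 in wild type and -0.035, 0.099 and 0.063 in knockout. The chemokine gene Pf4 differed by 0.25 on a dim probe set, higher in all 3 knockout samples (unadjusted limma p 0.0174, adjusted p 0.849). Microglia markers were lower for 5 of 11 (median 0.004), astrocyte markers for 6 of 12 (median 0.001) and neuron markers for 6 of 12 (median 0.006). Of 15 blood cell genes, 7 were measured, none of them a haemoglobin gene, and all 7 were dimmer than that median. The part of these cells in the values of the vascular genes was not tested. Another count left out 6 members that choroid plexus or astrocytes are also known to express, a selection that need not be complete. These were Slc2a1, Slco1c1, Slc16a1, Slc7a5, Foxq1 and the fibroblast gene Igf2. Of the 23 endothelial genes left, 18 were lower, with a median of -0.092, and this count does not test the part of those cells.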

How the data were processed

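RNA was isolated from hippocampi with Trizol, per the labels' protocols. The authors deposited log2 signals, and the submitters' processing notes name RMA and the Affymetrix Power Tools. Versions, annotation and build were not given in the sources used here. RMA makes the arrays' distributions alike, which removes any shift common to most genes. Raw scans were not used here. Of 41345 probe sets, 23521 named 1 gene, 1814 several and 16010 none in a platform annotation that can be old; only the first kind was used, at 1 probe set per gene. The number of arrays limits the precision, with a median standard error of 0.0997 over all genes.

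Knockout and wild type were compared by limma 3.58.1 (lmFit, eBayes) in R 4.3.3 over all 22180 genes, on genotype alone, with p-values adjusted by Benjamini-Hochberg and a threshold of 0.05. The fit was tested on simulated data. With 22180 genes, 25 of 50 genes changed by 0.5 and 38 of 50 changed by 1 were called, and 8 of 21980 unchanged ones. The same run held 50 genes changed by 2 and 50 changed by 3, of which 50 and 48 were called. These rates belong to that run, and how often such changes would be called in the present data was not tested. In the present data Trpc4, at -0.70, was not called (adjusted limma p 0.738). List counts and scores carry no test. Figures used matplotlib 3.10.9 in Python 3.11.15. Gene order and promoters came from RefSeq tables of GRCm38.p6, of which 21994 of the 22180 genes matched by gene number.

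The members and lists were chosen with earlier results of these data known. Every member may be named, as may up to 3 genes per further list with the lowest unadjusted p, and Trpc4. Values of every sample are given for members past an unadjusted p of 0.05 or without overlap and for the brightest of each class; those of Cldn5, Slc7a5, Itm2a, Kdr, Abcc9, Tagln, Myh11 and Lum were chosen after they were seen. As alternatives, samples or shared members were left out, dim probe sets were filtered, other probe sets of a gene or other thresholds were used, arrays were centred or quantile-normalized, and the fit took a replicate block, array weights, or trend with robust variance.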

Additional observations from a re-analysis of the deposited data

How the results depend on the processing

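No member passed the adjusted threshold under any alternative run, the lowest adjusted p of a member being 0.686 (limma). Over all genes the count of 0 became 1 with trend and robust variance (Trpc4 at -0.70, adjusted p 0.0378) and lay between 0 and 1 without single samples. Trpc4 lay between -0.77 and -0.65 without single samples. The 3 members past an unadjusted p of 0.05 became 0 at a limit of 0.01 and 7 at 0.1, and 0 to 4 without single samples. The 5.75% of all genes belongs to the limit of 0.05 with all 6 samples. No share of all genes is given here for the other limits or without single samples, so those counts cannot be set against one. With a replicate block the count was again 3, of which 1, Abcb1a, was shared with the fit without it, and 0 of all genes passed (lowest adjusted p 0.176). Correlations were 0.067, 0.035 and -0.004 between same-numbered samples 1, 2 and 3, and -0.061 to 0.027 between differently numbered ones. Replicates 1 and 2 correlated best with their own number and replicate 3 did not. Whether the numbers pair the samples was not tested. The 1 member higher without overlap became 2 with the dimmest probe set of each gene and 0 with probe sets above the median. Without single samples the higher ones were 1 to 3 and the lower ones 5 to 12, with no share of all genes given for those groups. The counts lower in knockout were 25 to 36 of 44 members, 19 to 25 endothelial, 5 to 8 mural and 1 to 4 fibroblast genes without single samples, with medians of -0.079 to -0.039, -0.125 to -0.057, -0.062 to 0.043 and -0.098 to 0.072. The fibroblast median was 0.105 with the dimmest probe set and 0.073 with the mean over probe sets. With the median of deviations in place of the mean, the endothelial transporter score overlapped between groups. Of 611 values of single members under the alternatives, 41 turned sign, in 23 members. Col1a2 was 0.23 with the dimmest probe set and 0.07 with the mean over probe sets, and Myh11 -0.0020 with median centring and -0.0079 with quantile normalization. The rest turned when a single sample was left out, and the cause was not tested. The range was Abcc9 -0.02 to 0.11, Abcg2 -0.09 to 0.05, Anpep -0.06 to 0.15, Cldn5 -0.15 to 0.11, Col1a1 -0.04 to 0.02 and Col1a2 -0.22 to 0.07. It was Eng -0.03 to 0.14, Flt1 -0.02 to 0.17, Foxq1 -0.14 to 0.11, Higd1b -0.14 to 0.05, Igf2 -0.10 to 0.21 and Kdr -0.26 to 0.03. It was Ly6c1 -0.42 to 0.18, Mfsd2a -0.09 to 0.13, Myh11 -0.07 to 0.05, Notch3 -0.03 to 0.13, Pdgfrb -0.04 to 0.06 and Pecam1 -0.06 to 0.01. It was Rgs5 -0.13 to 0.06, Slc16a1 -0.14 to 0.0087, Sox17 -0.11 to 0.08, Tie1 -0.16 to 0.04 and Vtn -0.05 to 0.08.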
